A study of Mus musculus with 12 samples.

Results

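The cytosolic heat shock chaperones are described here through 10 genes of a liver count table that held 53465 genes, of which 28449 had at least 1 count in any liver. The 10 genes were fixed by name and matched through their Ensembl identifiers to GENCODE M21 symbols. They are the transcription factor gene Hsf1, the Hsp70 genes Hspa1a, Hspa1b and Hspa8, the Hsp90 genes Hsp90aa1 and Hsp90ab1, the J-domain cochaperone genes Dnaja1 and Dnajb1, the Hsp110 gene Hsph1 and the small heat shock protein gene Hspb1. All 10 had counts.

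Cytosolic chaperones bind unfolded or newly made proteins. J-domain proteins hand clients to Hsp70 and start its ATP cycle, Hsp110 exchanges the nucleotide on Hsp70, Hsp90 takes late folding clients such as kinases and steroid receptors, and small heat shock proteins hold unfolded proteins in solution. When proteins unfold, HSF1 is released from chaperones, forms trimers and binds heat shock elements, which are inverted repeats of the unit nGAAn, upstream of the inducible genes. In the liver several of these genes are also known to follow body temperature and feeding through the day.

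The livers came from C57BL/6N mice, 4 animals at each of 3 ages with 1 library per animal. Young mice were 3 months old, middle-aged mice 12 months and aged mice 18 months. No group carried a treatment, allele or transgene, so age was the only labelled difference. The labels describe RNA preparation for young and old livers alone and speak of 3 replicates per age, while the paper credits expression data over 3 ages to a public atlas. The preparation of these 12 libraries is therefore uncertain. Time of day at collection was not given in the sources used here.

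Gene counts per library ranged from 8124312 to 10527159, and every member but Hspa1a had at least 68 counts in each liver. Hepatocyte markers were present throughout, with Alb at normalised counts from 485654 to 774027. Young replicate 3 and middle-aged replicate 1 stood apart, with 22284 and 19982 genes detected against 16361 to 17563 in the other 10 libraries. Young replicate 2 had the highest share of mitochondrial counts, 19.2% against 5.48% to 10.68% elsewhere, and of spike-in counts, 10.6% against 1.59% to 6.23%. The mitochondrial share ran from 7.40% to 19.2% in young livers and from 5.48% to 9.03% in the older ones, and its part in the age comparisons was not tested. The 92 synthetic spike-in transcripts divided the libraries into 2 sets: over the 31 spike-ins with at least 50 counts everywhere, the lowest correlation of log2 shares within a set was 0.997 and the highest between sets was 0.925. Set A held replicates 1 and 2 of each age and set B held replicates 3 and 4, so each age was split evenly, and anything that differed between the sets, spike-ins or animals, cannot be told apart.

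The promoters are shown because heat shock elements are the sequence by which the inducible members are known to respond together. RefSeq promoter sequences (GRCm38.p6, 250 bases before to 50 after the start, coding strand) were found for 6 of the 10 genes. Hsf1, Hspa8, Hsp90aa1 and Hsp90ab1 were not among them. Capitals mark the motifs GAANNTTC and TTCNNGAA, each of which reads the same on both strands and which may overlap each other by 3 bases. The Hspa1a promoter lies at chr17:34972107-34972406 (minus strand), that of Hspa1b at chr17:34959189-34959488 (minus strand), that of Hsph1 at chr5:149636287-149636586 (minus strand) and that of Hspb1 at chr5:135887669-135887968 (plus strand).
Hspa1a: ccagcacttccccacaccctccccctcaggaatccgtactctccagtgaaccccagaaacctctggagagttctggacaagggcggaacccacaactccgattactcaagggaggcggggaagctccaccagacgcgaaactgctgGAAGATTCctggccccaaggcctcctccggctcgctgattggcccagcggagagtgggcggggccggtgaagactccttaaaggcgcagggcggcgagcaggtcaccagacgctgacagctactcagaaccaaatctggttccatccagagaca
Hspa1b: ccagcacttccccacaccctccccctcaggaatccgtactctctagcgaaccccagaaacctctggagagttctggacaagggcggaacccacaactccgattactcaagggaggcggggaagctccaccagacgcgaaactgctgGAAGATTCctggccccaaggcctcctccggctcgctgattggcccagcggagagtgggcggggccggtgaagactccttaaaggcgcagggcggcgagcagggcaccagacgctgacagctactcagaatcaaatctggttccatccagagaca
Hsph1: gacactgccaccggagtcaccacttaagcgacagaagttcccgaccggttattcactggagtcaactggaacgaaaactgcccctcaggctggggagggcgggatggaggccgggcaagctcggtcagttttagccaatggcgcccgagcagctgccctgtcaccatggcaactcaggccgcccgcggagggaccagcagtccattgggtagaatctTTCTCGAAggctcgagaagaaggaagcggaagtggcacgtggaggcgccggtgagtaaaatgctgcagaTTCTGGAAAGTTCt
Hspb1: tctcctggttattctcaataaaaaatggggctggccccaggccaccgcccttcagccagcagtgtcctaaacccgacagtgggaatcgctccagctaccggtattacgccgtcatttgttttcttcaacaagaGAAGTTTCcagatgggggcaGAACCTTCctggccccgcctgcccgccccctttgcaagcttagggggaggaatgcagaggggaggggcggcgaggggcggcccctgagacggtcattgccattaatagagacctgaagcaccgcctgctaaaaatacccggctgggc

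The Hspa1a and Hspa1b promoters differed at 4 of 300 bases and held 1 motif each, starting at -104 with the first transcribed base as 0. The Hsph1 promoter held 3 motifs, 1 before the start and an overlapping pair after it that made 3 units in a row. The Hspb1 promoter held 2, both before the start. Of the 3 Dnaja1 promoters 1 held a motif, at -124, and the 2 Dnajb1 promoters held none. Of those 2, 1 begins inside the gene and holds the start of its coding part. Only exact matches within the 300 bases were sought, so a missing motif does not show that a gene lacks a heat shock element. Either motif was present in 15.1% of 32851 promoters of that length and a run of 3 units in 0.603%.

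Levels were compared between genes as size-normalised counts per kilobase of the principal transcript. Hspa8, the constitutive Hsp70, stood highest with a mean of 3719 ± 1178 per kb (SD, n = 12), followed by Hsp90ab1, the constitutive Hsp90, at 3545 ± 476. Those 2 did not differ beyond their spread, since Hspa8 was the higher in 7 of 12 livers. Hsp90aa1, the inducible Hsp90, lay at 725 ± 206 per kb and was below Hsp90ab1 in all 12 livers. Dnaja1 followed at 275 ± 49.5, and its level exceeded that of Hspb1 in 11 of 12 livers.

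Hspb1, at 166 ± 35.3 per kb, and Hsph1, at 148 ± 71.0, exchanged places from liver to liver, each being the higher in 6. Dnajb1, at 89.8 ± 17.1, exceeded Hsf1, at 61.5 ± 8.23, in every liver. Hspa1b, the stress-inducible Hsp70, lay at 50.4 ± 28.0 per kb and below Hsf1 in 10 of 12 livers. Hspa1a, its near-identical neighbour, stood lowest at a mean of 1.95. Dividing by all annotated exons in place of the principal transcript put Hsp90ab1 above Hspa8, Dnajb1 above Hsph1 and Hspa1b above Hsf1.

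**Figure D1:**
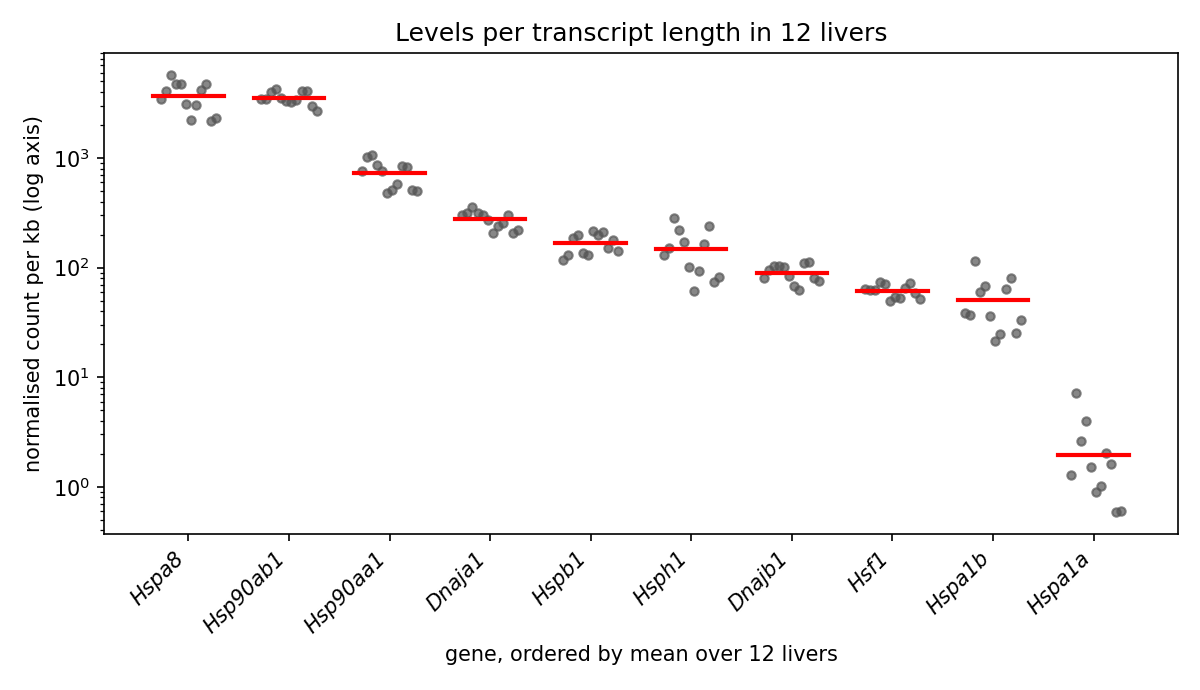
Normalised counts per kilobase of principal transcript on a log axis, with 1 grey point per liver and a red bar for the mean over 12 livers. Mean levels run from 3719 for Hspa8 to 1.95 for Hspa1a, whose single liver at 0 counts is not drawn.

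Hspa1a (chr17:34969190-34972156, minus strand, GRCm38) and Hspa1b (chr17:34956436-34959238, minus strand) are single-exon genes on 1 chromosome. Of 50-base windows of Hspa1a, 58.8% also occurred in Hspa1b, and in the coding part 82.3% did, whereas none did after the coding part. Reads from the shared part can belong to either gene, and the handling of such reads is not given in the sources used here. Raw counts of Hspa1a were 0, 3, 18 and 8 in young replicates 1 to 4, 12, 5, 3 and 3 in middle-aged ones and 6, 5, 2 and 2 in aged ones. Its values rest on so few counts that the pair was also read as a sum. Gm20481, on the opposite strand, covers 19.0% of the Hspa1a exon, and whether counting used strand is not stated.

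Hspa8 (chr9:40800984-40810087, plus strand), Hsp90aa1 (chr12:110690605-110702728, minus), Hsp90ab1 (chr17:45567775-45573271, minus), Dnaja1 (chr4:40722150-40737149, plus), Dnajb1 (chr8:83608193-83612653, plus), Hsph1 (chr5:149614287-149636376, minus), Hspb1 (chr5:135887919-135889563, plus) and Hsf1 (chr15:76477422-76501913, plus) are annotated as protein-coding genes, and their counts cover exons. Near-identical copies held few counts. Reads that fit several genes may have been dropped, so this does not show that the members lost none. Gm15459, for instance, is 99.74% identical to Hspa8 over 1941 bases and held 0 counts. The 13 annotated relatives of Hspa8 (at least 90% identity over at least 300 bases), of which 12 are pseudogenes, held 176 counts in all 12 libraries against 105769 on the gene itself. The 4 relatives of Hsp90aa1 held 134 counts against 28154. Smu1, on the opposite strand, covers 7.05% of the Dnaja1 exons.

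The first question was whether these genes differ between ages. In the aged livers 9 of 10 members had a mean below that of the young livers, with a median log2 fold change of -0.35 against -0.00030 over all genes tested, and none passed the test (DESeq2, adjusted p under 0.05), where 3.58% of 13527 tested genes did. Scaling by total gene counts moved the median of all genes by 0.12 and put Hsf1 at 0.02 and Dnajb1 at 0.095, above 0, and TMM factors put Dnajb1 at 0.01. At an unadjusted p under 0.05 there were 2, Dnaja1 and Hsp90aa1, and neither edgeR nor limma-voom called a member. Those tools called 172 and 136 of 12099 genes. In the middle-aged livers 9 of 10 were again below the young ones, with a median of -0.40, and 1 of 9 tested members fell, Hsp90aa1, where 6.41% of 11333 genes were called. Between aged and middle-aged livers 8 of 10 were above 0, the median was 0.08, and none was called where 1.14% of 10236 genes were. None had an unadjusted p under 0.05 there, and neither edgeR nor limma-voom called one, where they called 13 and 10 of 12099 genes. These comparisons share libraries, so they are not independent of each other.

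Hsp90aa1 had normalised counts of 2485, 3332, 3494 and 2829 in the young livers, 2491, 1567, 1679 and 1885 in the middle-aged livers and 2759, 2692, 1675 and 1656 in the aged livers. Middle-aged replicate 1 reached the lowest young liver, and the aged livers fell into a high pair and a low pair. The young mean was 3035 ± 463 (SD, n = 4), the middle-aged mean 1905 ± 412 and the aged mean 2196 ± 612. The log2 fold change of middle-aged against young livers was -0.67 ± 0.20 (SE, DESeq2 adjusted p = 0.0194), and aged against young it was -0.47 ± 0.20 (adjusted p = 0.187). Across the 3 ages Hsp90aa1 was the 1 member of 9 tested that was called (likelihood ratio test, adjusted p = 0.0364), where 6.96% of 12430 genes were. That call was kept in 12 of 24 alternatives, with an edgeR adjusted p of 0.129 and a highest of 0.785 within set A, and was lost without young replicate 2, 3 or 4 or middle-aged replicate 2, 3 or 4. The middle-aged call was lost with edgeR (adjusted p = 0.0824) and without young replicate 2 or 3 or middle-aged replicate 2, 3 or 4, and over 25 alternatives the adjusted p ran from 2.29e-07 to 0.405.

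Dnaja1, a J-domain partner of Hsp70, had normalised counts of 1711, 1784, 2024 and 1771 in young livers, 1703, 1527, 1168 and 1346 in middle-aged livers and 1436, 1713, 1162 and 1237 in aged livers. The middle-aged livers all lay below the young ones, and 1 aged liver reached the young range. The log2 fold change was -0.34 ± 0.14 in middle-aged livers (DESeq2 adjusted p = 0.119) and -0.39 ± 0.14 in aged livers (adjusted p = 0.0940). It passed the test in aged livers without aged replicate 2 or with the spike-in set as a term, and in middle-aged livers without middle-aged replicate 1 or with the 2 ages fitted alone.

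Hspa8 had normalised counts of 8341, 9868, 13737 and 11373 in young livers, 11445, 7379, 5309 and 7325 in middle-aged livers and 9997, 11359.5, 5203 and 5491 in aged livers. High and low livers occurred at every age, so the groups overlapped. The log2 fold change of aged against young livers was -0.43 (95% interval -1.07 to 0.20), a fold of 0.740 with bounds of 0.477 and 1.15. Hsph1, the Hsp110 gene, had 495, 572, 1075 and 837 in young livers, 651, 385, 233 and 357 in middle-aged livers and 626, 915, 283 and 310 in aged livers. Its highest and lowest values fell in nearly the same livers as those of Hspa8, and its log2 fold change of aged against young livers was -0.48 (95% interval -1.39 to 0.43).

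Hspa1b had 108, 104, 323 and 168 in young livers, 189, 102, 60.04 and 69.2 in middle-aged livers and 181, 225, 71.7 and 93.0 in aged livers. Young replicate 3 was the highest of the 12 livers. The sum of Hspa1a and Hspa1b differed by -0.31 on the log2 scale between aged and young livers (two-sided exact permutation test, p = 0.6), by -0.71 between middle-aged and young livers (exact p = 0.257) and by 0.40 between aged and middle-aged livers (exact p = 0.457). With 4 livers against 4 the smallest p that the test can give is 0.0286.

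Hsp90ab1 varied least among the chaperones. Its young livers lay between 8774 and 10678, the middle-aged ones between 8215 and 8898, and the aged ones between 6794 and 10265. Dnajb1, the heat-inducible J-domain gene, spanned 239 to 312 at 3 months, 185 to 303 at 12 months and 226 to 337 at 18 months, and its aged and young means, 284 and 287, nearly coincided. Hsf1, the factor itself, spanned 130 to 155, 104 to 147 and 108 to 149. Hspb1, the small heat shock protein gene, was the 1 member with a higher mean in aged than in young livers, 154 ± 27.8 against 142 ± 36.3, and its log2 fold change was 0.11 (95% interval -0.34 to 0.57).

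**Figure D2:**
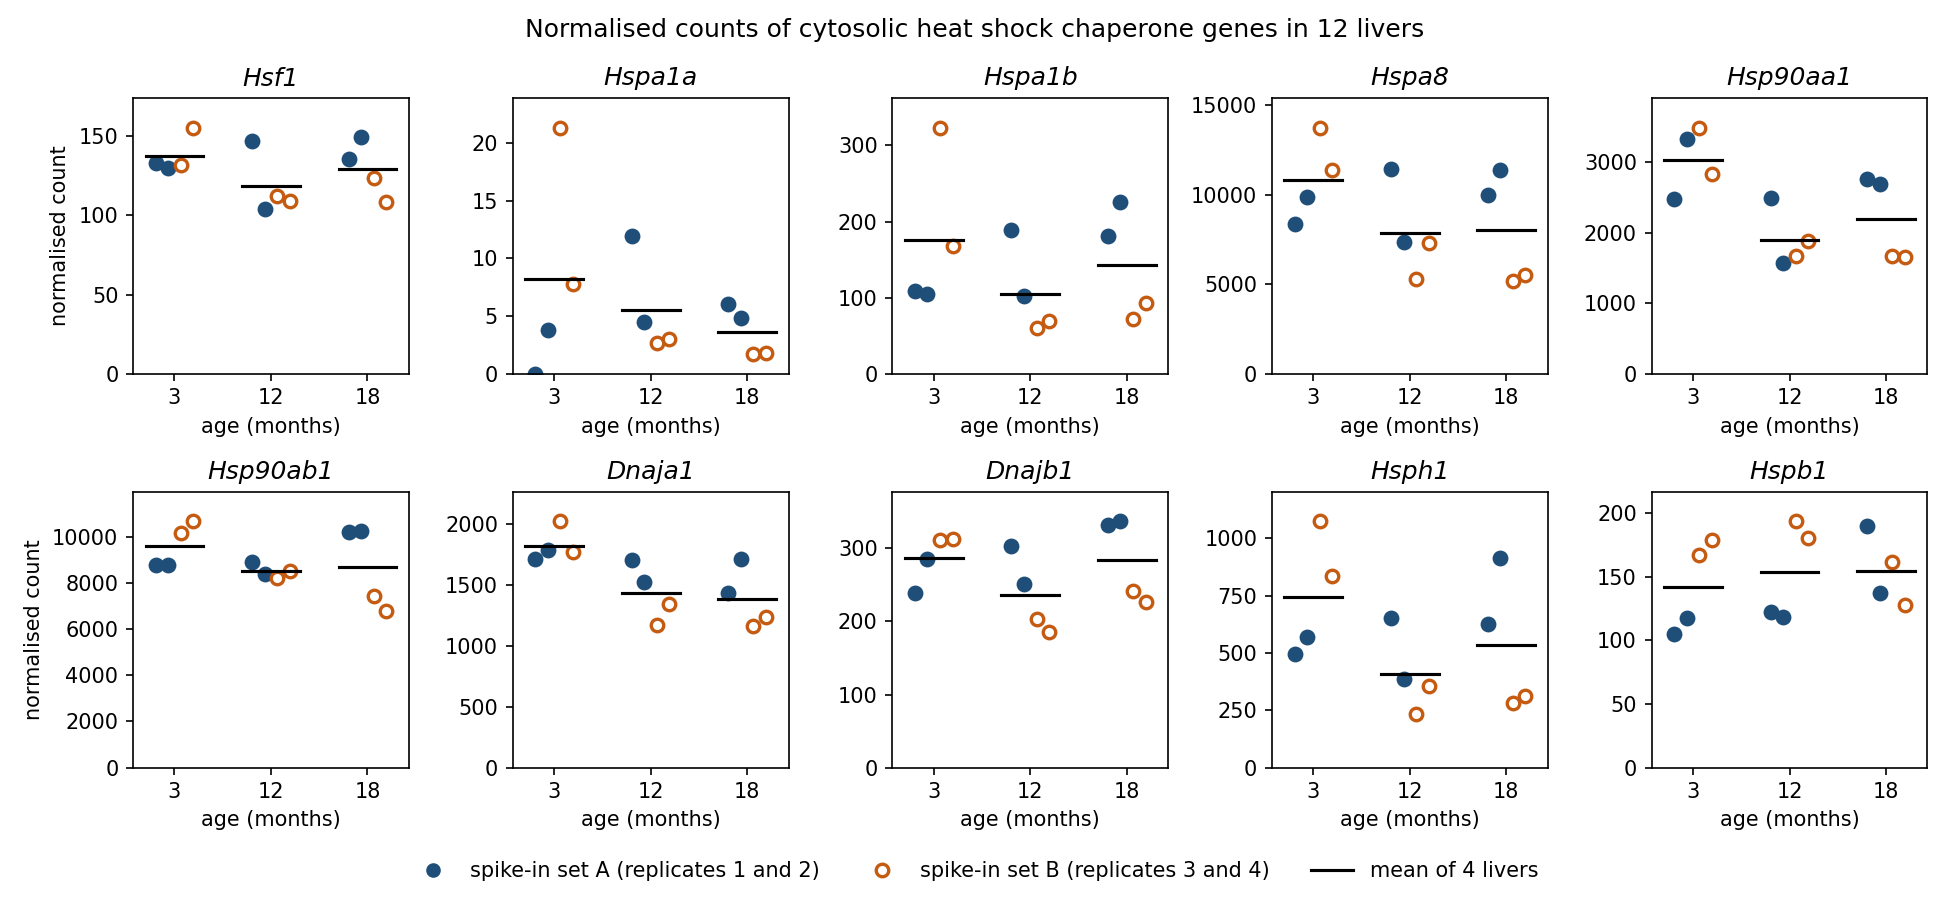
Normalised count (y axis, from 0) of each member against age in months, with 1 point per liver, filled for spike-in set A and open for set B, and a bar for the mean of 4 livers. At 3 months the set B livers sit above those of set A for Hspa8, Hsph1 and Hspa1b, and at 18 months they sit below.

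Livers of 1 age differed from each other more in these genes than in most. The standard deviation within ages of log2(normalised count + 1) was 0.75 for Hspa1b and 0.66 for Hsph1, higher than for 98.2% and 97.6% of the 8888 genes with a mean of at least 50, and 0.46 for Hspa8, higher than for 94.8%. It was 0.18 for Hsf1 and 0.20 for Hsp90ab1, beside a median of 0.19 over those genes. The share of the squares that lay between ages was 52.0% for Hsp90aa1 and 50.5% for Dnaja1, between 17.1% and 30.1% for Hsf1, Hspa1b, Hspa8, Hsp90ab1, Dnajb1 and Hsph1, and 3.99% for Hspb1, beside a median of 28.1%.

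Most members rose and fell together from liver to liver. Of all 45 pairs of the 10 members 38 correlated positively and 31 had an adjusted p under 0.05, with a median Pearson r of 0.73 and a lowest of -0.34. All 21 pairs among Hspa1b, Hspa8, Hsp90aa1, Hsp90ab1, Dnaja1, Dnajb1 and Hsph1 correlated positively over the 12 livers, with a median Pearson r of 0.85 and a range from 0.68 to 0.97. These genes leave out Hsf1, Hspa1a and Hspb1 by no rule stated beforehand, so the 45 pairs are the fuller account. Over all pairs of the 8888 genes the median was 0.0035, and 4.50% of pairs exceeded 0.65. The points share library, size factor and liver. After the mean of each age was removed the median over the 21 pairs was 0.84. Within set B (6 livers) r ranged from 0.65 to 0.99, and within set A (6 livers) from -0.28 to 0.91, where the pairs of Dnaja1 with Hspa1b, Hsp90ab1 and Dnajb1 were below 0.

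Hspa8 and Hsph1 were the closest pair, with r = 0.97 and Spearman's rho = 0.965 over 12 livers (two-sided permutation p = 1e-05, the smallest that 100000 permutations can give, and 0.00045 adjusted over 45 pairs). Without the 2 livers farthest from the median of Hspa8, r was 0.96. Hsf1 correlated with Dnajb1 at r = 0.80 and rho = 0.762 (permutation p = 0.0026, adjusted 0.0085) and with Hsph1 at r = 0.79 and rho = 0.748 (permutation p = 0.0033, adjusted 0.0092). Without the 2 livers farthest from the median of Hsf1 the values were 0.87 and 0.79. Hspb1 stood outside the group, with r between -0.34 and 0.33 to the 9 other members and none below an adjusted p of 0.05.

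Cirbp and Rbm3, RNA-binding protein genes known to be induced by mild cold, ran against most members. Of 10 members, 6 correlated with Cirbp at an adjusted p under 0.05, with a median r of -0.68, and 8 with Rbm3, with a median of -0.67. The share of all genes that correlate as strongly with either was not computed, so these counts have no background beside them. Within set A the Cirbp median was -0.44, with Hsp90aa1 at 0.28 and Dnaja1 at 0.03, and Rbm3 with Hspb1 was at 0.0089 over all livers. Cirbp had normalised counts of 104, 113, 53.3 and 64.4 in young livers, 79.4, 91.6, 105 and 89.2 in middle-aged livers and 97.3, 76.1, 106 and 112 in aged livers. It was lowest in young replicate 3, where Hspa1b, Hspa8 and Hsph1 were highest. Its strongest correlation, with Hspa1b, was r = -0.77 and rho = -0.643 (permutation p = 0.0024 and 0.028, adjusted over 20 pairs 0.014 and 0.044), and r was -0.56 without the 2 livers farthest from the median. Within sets A and B it was -0.78 and -0.92. The strongest for Rbm3, with Hsph1, gave r = -0.79 and rho = -0.804 (permutation p = 0.00081 and 0.0024, adjusted 0.014 and 0.016), -0.76 without the 2 farthest livers, and -0.87 and -0.88 within sets A and B. Neither gene passed the test in any age comparison.

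**Figure D3:**
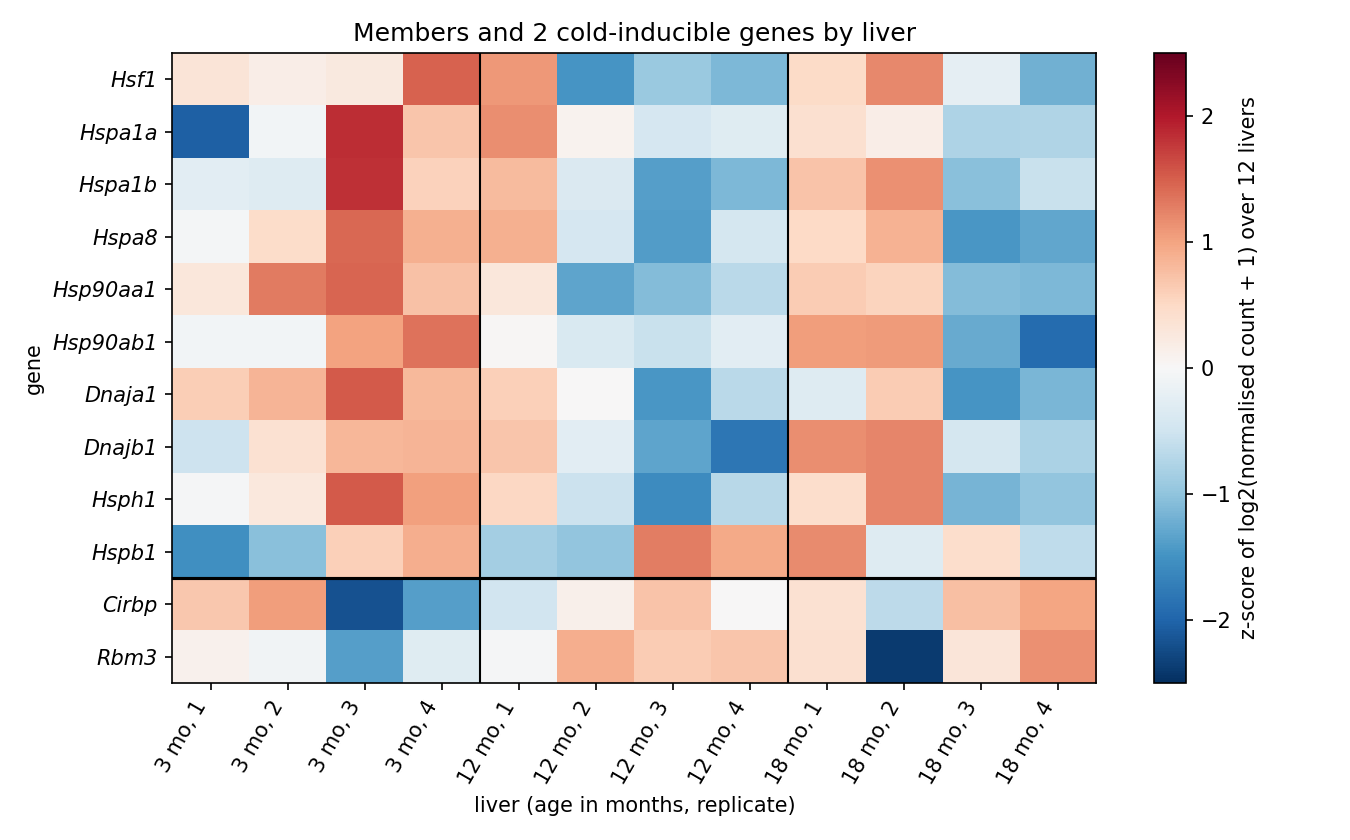
Heat map of z-scores over 12 livers of log2(normalised count + 1), with genes in rows, livers in columns ordered by age in months and replicate, red above and blue below the gene's mean. Young replicates 3 and 4, middle-aged replicate 1 and aged replicates 1 and 2 are red for most members, and Cirbp and Rbm3, under the line, are reversed in most of those livers.

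The genes nearest to the inducible members were ranked by the correlation of log2(normalised count + 1) with the mean z-score of Hspa1a, Hspa1b, Dnajb1, Hsph1 and Hsp90aa1 over 12 livers, among 8879 other genes with a mean of at least 50. Hspa1a, with 0 to 18 counts per liver, weighs as much in that mean as the others, and the ranking without it was not computed. The 8 highest were Stx5a (0.94), Cdk2ap2 (0.93), Srm (0.93), Trabd (0.92), Apba3 (0.91), Gmppb (0.91), Uspl1 (0.91) and Manf (0.90). The 4 lowest were Sypl (-0.92), Mef2a (-0.91), Wwtr1 (-0.89) and Elk4 (-0.88). Cirbp was at -0.75 and Rbm3 at -0.74, with 1.04% and 1.48% of the ranked genes lower. Among 14 Hsp90 cochaperone genes the correlation ran from -0.28 for Cdc37l1 to 0.90 for Ahsa1, an activator of the Hsp90 ATPase.

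The second question was whether the age difference was the same in the 2 spike-in sets. It was chosen after the split of the livers had been seen. In set A 8 of 10 members were above 0 in aged against young livers, with a median log2 fold change of 0.30, and none of 9 tested was called (DESeq2) where 1.19% of 11652 genes were, Hspa1b and Hsph1 having an unadjusted p of 0.00671 and 0.0488. In set B all 10 were below 0, with a median of -0.79, and 6 of 9 tested fell, Hspa1b, Hspa8, Hsp90aa1, Hsp90ab1, Dnaja1 and Hsph1, where 4.36% of 10978 genes were called. Of the 9 members with a mean of at least 50, 7 had both aged livers above both young livers in set A and below both in set B. The same held for 3.47% of 8888 genes. For middle-aged against young livers it held for 0 of 9 members and 2.61% of genes, and for aged against middle-aged livers for 3 of 9 and 3.61%. The comparisons share livers, and since the members follow each other the 7 are not 7 separate observations.

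Middle-aged against young livers gave no call among 9 tested members in set A (DESeq2, 1 at an unadjusted p under 0.05, Hsp90aa1), where 2.07% of 12117 genes were called. In set B 5 of 9 fell, Hspa1b, Hspa8, Hsp90aa1, Dnaja1 and Hsph1, where 3.62% of 8464 genes were called. Aged against middle-aged livers gave no call in either set, of 4 members tested in set A and 9 in set B, where 1.54% and 2.45% of genes were called, Hsph1 in set A and Hsp90ab1 in set B having an unadjusted p of 0.0341 and 0.0297.

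The difference itself was tested as the interaction of age and spike-in set over all 3 ages (DESeq2, likelihood ratio test), with 2 livers per age and set. It passed for 4 of 9 members tested, where 1.6% of 11351 genes were called. With edgeR 2 of the 4 were called, Hsph1 and Hspa1b, where 64 of 12099 genes were. On simulated data of this size a larger share of the calls was false with DESeq2 than with edgeR, above the threshold in both, so calls made by DESeq2 alone, those of Hspa8, Hsp90ab1 and the genes of other lists included, carry less weight. For Hsph1 (adjusted p = 7.33e-06) the log2 fold change of aged against young livers was 0.54 ± 0.27 (SE) in set A and -1.69 ± 0.22 in set B. For Hspa1b (adjusted p = 0.000109) it was 0.94 ± 0.35 and -1.58 ± 0.36. For Hspa8 (adjusted p = 0.000311) it was 0.23 ± 0.21 and -1.23 ± 0.15, and for Hsp90ab1 (adjusted p = 3.71e-05) 0.23 ± 0.15 and -0.55 ± 0.10. The edgeR adjusted p was 0.0456 for Hsph1, 0.0461 for Hspa1b, 0.102 for Hspa8 and 0.105 for Hsp90ab1.

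Hsp90aa1 and Dnaja1 were not called for the interaction (adjusted p = 0.367 and 0.420). Hsp90aa1 was at -0.09 ± 0.23 in set A and -0.93 ± 0.14 in set B for aged against young livers, and at -0.52 ± 0.23 and -0.84 ± 0.14 for middle-aged against young livers. Without young replicate 3 and middle-aged replicate 1, the 2 libraries that stood apart, Hsp90aa1 kept its middle-aged call and lost that across 3 ages. Over all genes 272 of 12727 were called there in middle-aged against young livers, against 727 of 11333 with all livers. Across 3 ages 472 of 13630 genes were called, against 865 of 12430 with all livers. The interaction was not read without these libraries, since 1 young liver of set B and 1 middle-aged liver of set A remained.

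**Figure D4:**
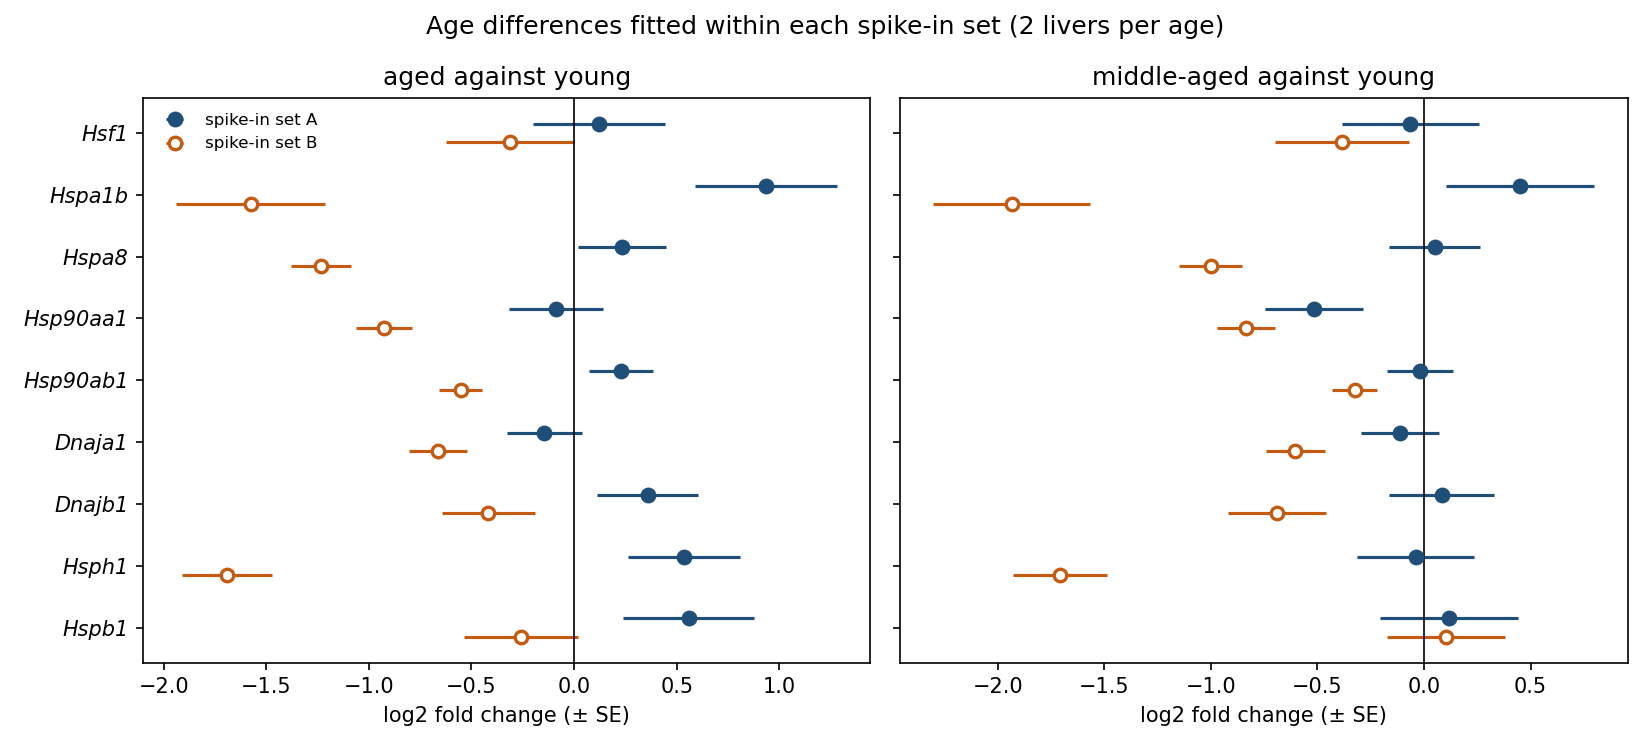
Log2 fold change ± SE of 9 members fitted within spike-in set A (filled) or B (open), for aged against young livers on the left and middle-aged against young livers on the right, with 2 livers per age in each set. Hspa1a, with 0 to 18 counts per liver, is not drawn. Set B lies left of 0 for all 9 members on the left, from -0.26 for Hspb1 to -1.69 for Hsph1.

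The other genes of the chaperone network were read as lists, and no test between lists was run. Among 14 Hsp90 cochaperones, 14 other cytosolic J-domain genes, 9 Hsp70 exchange factors and cofactors, 7 other cytosolic Hsp70 and Hsp110 genes, 9 other small heat shock protein genes and 4 heat shock factor genes, no tested gene passed in any pairwise comparison of ages (DESeq2). At an unadjusted p under 0.05 the count per list and comparison was at most 4, for the Hsp90 cochaperones in middle-aged against young livers. Of 14 chaperonin and prefoldin genes 2 fell in middle-aged against young livers, where 6.41% of 11333 genes were called. They were the TRiC subunit genes Cct3 (log2 fold change -0.37 ± 0.10, DESeq2 adjusted p = 0.00891) and Cct2 (-0.25 ± 0.08, adjusted p = 0.0290). Hspe1, the mitochondrial partner of Hsp60, fell by 0.50 there (SE 0.15, adjusted p = 0.0237).

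Endoplasmic reticulum chaperones, which fold secreted proteins, also differed between the spike-in sets. In middle-aged against young livers the median log2 fold change of 13 tested genes was -0.59, and 10 had an unadjusted p under 0.05. There 3 fell, Pdia6 (-0.47 ± 0.14, DESeq2 adjusted p = 0.0267), Dnajb11 (-0.59 ± 0.18, adjusted p = 0.0283) and Manf (-1.08 ± 0.36, adjusted p = 0.0435), where 6.41% of 11333 genes were called. For the interaction of age and set 7 were called, where 1.6% of 11351 genes were. Hspa5, the Hsp70 of that compartment, was among the 7 (adjusted p = 0.000263), with normalised counts of 8526, 8169, 14992 and 12558 in young livers, 9260, 6607, 4609 and 6021 in middle-aged livers and 10449, 17489, 8275 and 7778 in aged livers. Young replicates 3 and 4 and aged replicate 2 were its 3 highest livers. Of 9 Hsp70 exchange factor and cofactor genes 1 was called for the interaction, Bag3 (DESeq2 adjusted p = 0.0161), which links Hsp70 to small heat shock proteins.

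Other properties differed between the ages beside these genes. Of 15 clock genes 10 were called across the 3 ages, where 6.96% of 12430 genes were. Pairwise, 1 of 15 was called in aged against young livers, 6 of 14 in middle-aged against young and 8 of 13 in aged against middle-aged livers. Over all genes the shares were 3.58%, 6.41% and 1.14%. In the last comparison Per3 fell (-2.31 ± 0.36, DESeq2 adjusted p = 1.78e-07) while Nfil3 rose (1.53 ± 0.22, adjusted p = 1.65e-08). Both went the other way in middle-aged against young livers, at 1.51 ± 0.34 for Per3 and -1.01 ± 0.22 for Nfil3. Dbp, a clock output gene, was called for the interaction of age and set (adjusted p = 0.00543), as was Nr1d1 (adjusted p = 3.73e-07). Of 3 erythroid markers Alas2 and Hbb-bs fell in aged against young livers, and their summed level with Hba-a1 ranged from 16870 to 60072 at 3 months, 9746 to 35995 at 12 months and 7398 to 15834 at 18 months. Kupffer cell markers summed to 2697 to 4664, 2335 to 2934 and 2800 to 3864, and none of the 7 was called in any comparison. The part of these in the chaperone values was not tested, and in bulk tissue fewer cells of a type and less RNA per cell cannot be told apart.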

How the data were processed

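RNA-seq counts per gene of 12 mouse livers were used, with 92 synthetic spike-in transcripts in the same table. The authors deposited raw counts per Ensembl gene. The submitters' processing notes name STAR 2.5.2b, SAMtools 1.9, featureCounts, R 3.6.3, edgeR 3.28.1 and DESeq2 1.26.0 with mm10/GRCm38. Strand and multi-mapping settings are not given in the sources used here. All columns matched a sample by name. Labels place each liver in an age group and say that each is 1 animal.

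Size factors, log2 fold changes, standard errors and Benjamini-Hochberg adjusted p-values came from DESeq2 1.42.0 in R 4.3.3, fitted on 28449 genes with at least 1 count and all 12 livers, with spike-ins left out. Normalised counts are counts divided by size factors. Alternatives were edgeR 4.0.16 (quasi-likelihood), limma 3.58.1 (voom), TMM factors, a filter of 10 counts in 4 livers, each liver left out, the replicate block and the spike-in sets. Total-count scaling and the interaction of age and spike-in set, with its alternatives, were chosen after seeing the data. The tests across genes were tried on simulated data, in which DESeq2 made false calls above its threshold and more of them than edgeR, in the pairwise test of aged against young livers as well as in the interaction. Fewer of the changed genes were recovered with edgeR in both. Correlations used 100000 permutations and Benjamini-Hochberg adjustment within a family. Copies were found with BLAST 2.17.0. Outside the 10, up to 4 genes per list and pairwise comparison with the smallest adjusted p under 0.05 and a mean of at least 10, and the 8 highest and 4 lowest by likeness, could be named. Ahsa1, Cdc37l1, Ppid and genes named for the interaction were chosen after their values were seen. Members and lists were chosen with earlier results of these data known. Counting precision limited Hspa1a most. Hsf1 had 102 to 159 raw counts per liver, Hspb1 92 to 219 and Hspa1b 68 to 273, so counting noise is part of their spread. The p-values measure the spread between these livers, counting noise included.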

Additional observations from a re-analysis of the deposited data

Results flagged for a closer look

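The 4 members Hsph1, Hsp90ab1, Hspa1b and Hspa8 differed in their age effect between the spike-in sets, with DESeq2 adjusted p = 7.33e-06 for Hsph1, 3.71e-05 for Hsp90ab1, 0.000109 for Hspa1b and 0.000311 for Hspa8. Each was lower in both aged livers of set B than in both young ones and higher in set A. All 4 share the same 12 livers and follow each other, so they are 1 pattern. On simulated data 20.3% of calls were false with the DESeq2 form of this test and 7.95% with edgeR, while edgeR recovered fewer of the changed genes. With edgeR the calls for Hsp90ab1 and Hspa8 were lost, and that for Hsp90ab1 was also lost without aged replicate 4.

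Hsf1 had 1 young liver far from the other 3, replicate 4 at a normalised count of 155 against 130 to 133, a gap of 0.890 of the range. Of 30 groups of 4 livers tested this was the only one, where chance gives about 1.5. The raw counts behind the young values were 125, 102, 111 and 159, and counting noise was not separated from the gap.

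Spike-in transcripts were counted in every library, at 1.59% of counts or more, and entered no comparison of genes.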

How the results depend on the processing

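Beside the main counts of members called (0 for aged against young, 1 for middle-aged against young, 0 for aged against middle-aged, 1 across 3 ages and 4 for the interaction), aged against young gave 1 with the spike-in set as a term and 6 in set B. Over all genes those settings called 501 of 13557 and 479 of 10978. Middle-aged against young gave 0 with edgeR, limma-voom or set A, 2 with only those ages fitted and 5 in set B. Over all genes these settings, in that order, called 280 of 12099, 195 of 12099, 251 of 12117, 1166 of 10449 and 306 of 8464. Across 3 ages there were 0 with edgeR, limma-voom, no independent filtering, set A, total counts or without the 2 libraries that stood apart, 2 with the set as a term and 6 in set B. Over all genes the settings with 0 called, in that order, 234 of 12099, 197 of 12099, 611 of 28418, 270 of 13512, 1155 of 11335 and 472 of 13630. Here the last 2 settings called 884 of 12454 and 637 of 12487 genes. The interaction gave 2 with edgeR, where 64 of 12099 genes were called. Leaving out each liver gave 0 to 1 for aged against young, 0 to 2 for middle-aged against young and 0 to 2 across ages. Over all genes these fits called 237 to 1291, 345 to 1096 and 503 to 1637 genes.

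Directions turned as follows (log2). In set A, aged against young was 0.12 for Hsf1, 1.57 for Hspa1a, 0.94 for Hspa1b, 0.23 for Hspa8, 0.23 for Hsp90ab1, 0.36 for Dnajb1 and 0.54 for Hsph1, and middle-aged against young was 2.16 for Hspa1a, 0.45 for Hspa1b, 0.050 for Hspa8 and 0.083 for Dnajb1. Total counts gave 0.018 for Hsf1 and 0.095 for Dnajb1, and TMM factors 0.010 for Dnajb1. Without the 2 libraries that stood apart, aged against young was 0.17 for Hspa1b and 0.028 for Dnajb1, and aged against middle-aged was 0.074 for Hspa1a, 0.043 for Dnaja1 and -0.091 for Hspb1. In set B, aged against young was -0.26 for Hspb1, and aged against middle-aged was -0.23 for Hspa8, -0.090 for Hsp90aa1, -0.23 for Hsp90ab1 and -0.36 for Hspb1. For aged against middle-aged, limma-voom gave -0.0012 for Hspa8 and the filter on low counts gave -0.00053 for Hspb1. The cause was not tested.

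Leaving out 1 liver gave, for aged against young, -0.58 to 0.048 for the sum of Hspa1a and Hspa1b and -0.61 to 0.17 for Hspa1b, both highest without young replicate 3, -0.11 to 0.081 for Dnajb1 and -0.0062 to 0.25 for Hspb1. For middle-aged against young it gave -1.28 to 0.49 for Hspa1a and -0.018 to 0.25 for Hspb1. For aged against middle-aged it gave -0.99 to 0.077 for Hspa1a, -0.19 to 0.27 for Hspa8, -0.060 to 0.13 for Hsp90ab1, -0.17 to 0.044 for Dnaja1 and -0.11 to 0.13 for Hspb1. Of the other settings, 337 values kept direction and side of the threshold. Equal replicate numbers did not pair the livers (correlations -0.30 to 0.16). The fit with the replicate block called 0, 1 and 0 members pairwise and 1 across ages. Over all genes it called 655 of 22955, 385 of 11902, 426 of 28449 and 451 of 13005.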

Other observations

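Immediate-early genes, which answer acute stimuli, also differed between middle-aged and young livers. Of 11 tested 3 fell (DESeq2), where 6.41% of 11333 genes were called. They were Egr1 (log2 fold change -3.49 ± 0.73, adjusted p = 0.000281), Fos (-3.07 ± 0.87, adjusted p = 0.0137) and Btg2 (-1.45 ± 0.47, adjusted p = 0.0372). Among 7 mitochondrial chaperones Grpel2, a nucleotide exchange factor gene, rose there (0.55 ± 0.16, adjusted p = 0.0198). Ppid, a cyclophilin gene of the Hsp90 cochaperone list, was called across the 3 ages (adjusted p = 0.0490). Of 4 tested cholangiocyte markers Sox9 rose in aged against young livers (0.86, DESeq2 adjusted p = 0.0169), while the median of the 4 was -0.19. Exocrine pancreas markers Cpa1 and Prss2 stayed under 3 normalised counts in every liver, and Cela2a ranged from 0.874 to 9.03.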
